A study of Homo sapiens with 7 samples.

Results

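The loops described here are strong ZNF143 contacts of HEC-1-B cells, a human endometrial adenocarcinoma line, that had no counterpart after CTCF was depleted. They were drawn from the ZNF143 HiChIP list of CTCF-AID cells at 0 h of auxin (IAA). A loop was a member when its count was 10 or more and no loop of the 24 h list had both anchors overlapping its own after a 5 kb extension. Of 1909 loops with a count of 10 or more, 504 met this rule (26.4%, 95% Wilson interval 24.5 to 28.4%), and the 0 h list held 40405 loops in all. The remaining 1405 strong loops, here called kept loops, serve as the comparison. Membership was set by the 0 h and 24 h counts themselves, so those counts are given as a description only.

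HiChIP joins proximity ligation with immunoprecipitation, so each loop is a pair of genomic anchors and a count of the ligation products that connect them in chromatin pulled down with one antibody. The series holds 7 such lists, 1 library per group, and therefore no replicate spread and no test between groups. Unmodified cells (genotype wild type) gave lists for ZNF143, CTCF and RAD21, and ZNF143KO cells, which lack ZNF143, gave lists for CTCF and RAD21. CTCF-AID cells carry CTCF fused to an auxin-inducible degron and gave ZNF143 lists at 0 h and at 24 h of IAA, for which the protocol gives 500 µM. The groups share the cell line, and whether an edited line is 1 clone is not given in the sources used here. The 2 CTCF-AID libraries differ only in the labelled time of IAA, no list measures CTCF in these cells, and the effect of the agent and the difference between 2 libraries cannot be told apart.

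The lists held 10804 to 40405 loops with summed counts of 33460 to 143119, and the lowest count listed was 2 in each. A loop called missing is one that is not listed at 24 h; whether it had few counts, no called anchor or was removed by a filter cannot be told apart. Summed counts were 143119 at 0 h and 102962 at 24 h, a ratio of 0.719. Counts were even in 89.5% of loops at 0 h and 86.8% at 24 h, against 68.1 to 74.6% in the other 5 lists. The scale of both CTCF-AID lists may therefore differ from that of the others. Loops share anchors, so every interval below covers counting error only and is too narrow to that extent.

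CTCF is a zinc-finger protein that binds an oriented DNA motif and stops the cohesin ring, of which RAD21 is a subunit, as it extrudes chromatin loops. ZNF143 is a zinc-finger activator that binds a longer motif found mainly at promoters, among them those of many housekeeping genes and small nuclear RNA genes. Its chromatin sites often lie close to CTCF sites, which is the reason to ask what ZNF143 contacts do when CTCF is removed.

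Genes were placed at anchors from general knowledge of GRCh37 (hg19) positions, because no annotation of that build was used here. As a partial check, distances between gene starts in the RefSeq table of GRCh38.p14 were set beside distances between anchors for the named pairs. The 24 pairs of starts differed from the anchor distance by at most 2.55 kb, taking the nearest of the candidate starts. Of 17 pairs with an anchor placed inside a gene, 15 fell inside it and 2 (VAV1 and TPRG1) fell outside by 5.96 kb and 36.5 kb. Those 2 placements are not used. The table had been viewed before the genes were placed, so the check is not blind, and the placements of NR4A1, GPC1, TIAM1 and DZIP1L had no second gene to check them. BCL6 was paired only with TPRG1, the pair that missed by 36.5 kb, so its placement passed no check.

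Of 62 genes considered for these anchors, 47 had a RefSeq promoter sequence (GRCh38.p14). The 47 include VAV1, whose placement is not used. They also include genes placed only by their body, such as BCL7C and GGCX, whose promoter need not lie at the anchor. In the 250 bases before the start, an 11-base core of the ZNF143 motif, with 2 of its bases left free, stood on either strand in 2 of the 47 and in 262 of 35116 promoters (0.746%). A 12-base core of the CTCF motif, also with free bases, stood in 4 of the 47 and in 999 of all promoters (2.84%). The 3 sequences given here are promoters at anchors described in the results, FEM1A and SYMPK with the ZNF143 motif and PRPF6 with the CTCF motif, and the motif is in capitals. A match is a description of letters, and no binding was measured at this resolution. FEM1A lies at chr19:4791484-4791733 on the plus strand and is the still-listed end of the member with the highest count. SYMPK lies at chr19:45863148-45863397 on the minus strand and is a partner of the unlisted anchor with the most members. PRPF6 lies at chr20:63980882-63981131 on the plus strand and is an end of a member with both anchors still listed.
FEM1A: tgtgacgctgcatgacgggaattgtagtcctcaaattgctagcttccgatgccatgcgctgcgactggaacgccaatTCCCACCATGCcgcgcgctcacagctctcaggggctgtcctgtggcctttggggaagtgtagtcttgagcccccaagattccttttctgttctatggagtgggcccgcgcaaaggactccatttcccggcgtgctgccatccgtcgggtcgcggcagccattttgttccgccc
SYMPK: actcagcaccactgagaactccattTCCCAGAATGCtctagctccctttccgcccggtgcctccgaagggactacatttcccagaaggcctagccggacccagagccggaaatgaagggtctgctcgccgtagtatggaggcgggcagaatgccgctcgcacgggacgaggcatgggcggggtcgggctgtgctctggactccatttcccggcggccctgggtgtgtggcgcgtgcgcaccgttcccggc
PRPF6: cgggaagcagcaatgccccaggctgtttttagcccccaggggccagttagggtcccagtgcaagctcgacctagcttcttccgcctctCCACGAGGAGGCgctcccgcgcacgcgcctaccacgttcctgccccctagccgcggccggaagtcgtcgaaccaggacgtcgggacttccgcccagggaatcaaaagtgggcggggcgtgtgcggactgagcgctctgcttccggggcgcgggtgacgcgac

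Most missing loops had 1 end that was no longer listed. One anchor was still an anchor of some 24 h loop in 455 of the 504 members (90.3%, 87.4 to 92.6%), both were in 37 (7.34%) and neither was in 12 (2.38%). Among all 30438 missing loops of the 0 h list (75.3% of that list), these shares were 54.1%, 24.5% and 21.4%. The 455 members used 399 distinct unlisted anchors and 303 distinct still-listed ones. An unlisted anchor carried a median of 5 ZNF143 loops at 0 h and a still-listed anchor 19, with median summed counts of 26 and 102, when only loops with exactly that anchor are counted. Later sums at still-listed anchors also take loops that end within 5 kb of it. An anchor with more loops has more ways to stay listed, so this difference follows in part from the split. The unlisted anchors lay a median of 24.6 kb from the nearest 24 h anchor, 62 of them within 10 kb and 80 beyond 50 kb.

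Missing loops were less common at 0 h counts of 20 or more. The share missing was 31.4% at counts of 10 to 14 (316 of 1006), 27.1% at 15 to 19, 16.8% at 20 to 29 and 17.1% at 30 or more (41 of 240). Around the count threshold it was 38.3% at a count of 8, 38.9% at 9, 30.3% at 10 and 29.1% at 11. Around the distance threshold, 48 kept loops needed 2.5 to 5 kb of extension to find a partner, and 40 members needed 5 to 7.5 kb. A further 40 members needed 7.5 to 10 kb, and the median member needed 29.7 kb. Reading the lists in the other direction, 154 of 2094 strong 24 h loops (7.35%) had no 0 h counterpart.

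The median span of members was 74.9 kb (quartiles 36.5 and 153 kb), against 87.8 kb (42.2 and 177 kb) for kept loops and 236 kb for all 0 h loops. The difference of medians was -12.8 kb (95% interval from order statistics -23.6 to -0.0314), and without chromosome 19 it was -9.29 kb with an interval that includes 0 (-25.0 to 6.78). The share missing ran between 23.4% (100 to 200 kb) and 29.7% (20 to 50 kb) over 5 span classes, with overlapping intervals. Chromosome 19, which is rich in genes and zinc-finger clusters, held 125 members (24.8%) and 573 kept loops (40.8%). There 17.9% of strong loops were missing (15.2 to 20.9%), against 31.3% on the other chromosomes. Among those the share varied, from 11.8% on chromosome 9 (2 of 17) to 48.1% on chromosome 10 (13 of 27) and 88.9% on chromosome 18 (8 of 9). Most chromosome 18 members shared an anchor with another member, so that share rests on few loci. Chromosome 4 (2 of 3 missing) and chromosome X (1 strong loop) held too few to give a share.

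**Figure D1:**
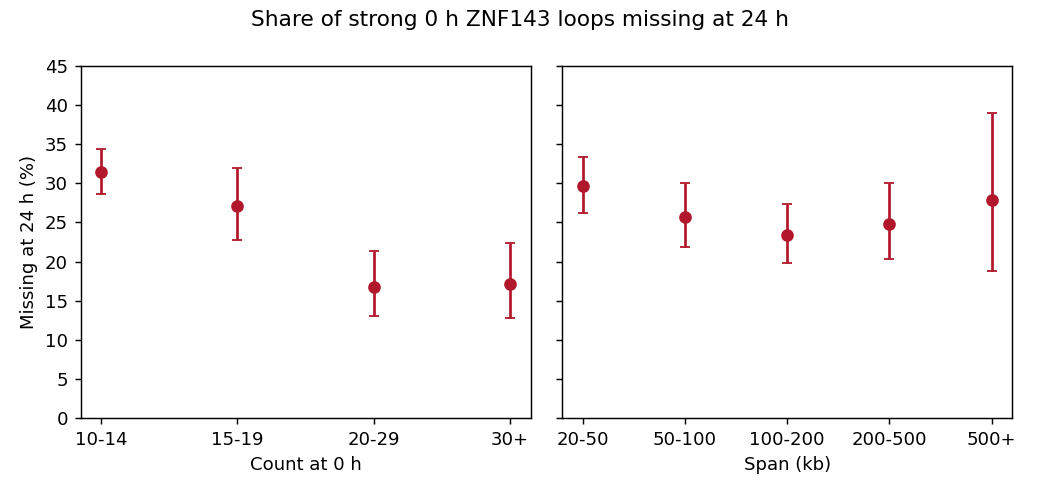
Share of strong 0 h ZNF143 loops missing at 24 h, in percent, by their 0 h count (left) and by span in kb (right); bars are 95% Wilson intervals. The share falls from 31.4% at counts of 10 to 14 to 17.1% at 30 or more, while the span classes stay between 23.4% and 29.7%.

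The largest member, with a count of 90 at 0 h, joined the FEM1A promoter to an anchor upstream of DPP9 on chromosome 19 (chr19:4732259-4733582 and chr19:4790697-4792456, hg19). FEM1A is a substrate-recognition subunit of a cullin-RING ubiquitin ligase and DPP9 a cytosolic dipeptidyl peptidase. In wild-type cells the loop had 32 ZNF143 counts and 6 CTCF counts and was not listed for RAD21, and in ZNF143KO cells it had 4 CTCF and 2 RAD21 counts. At 24 h the strongest loop of the FEM1A anchor reached the DPP9 start, with 97 counts against 79 at 0 h. The DPP9-start partner lay 7.6 kb from the missing anchor, outside the 5 kb extension and inside 10 kb.

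Another 2 of the 12 members with the highest counts also lay within 10 kb of a 24 h loop. A chromosome 19 member of count 50 joined the body of BCAT2, a mitochondrial branched-chain aminotransferase, to that of PLEKHA4. Its BCAT2 anchor kept a loop 5.52 kb away that had 79 counts at 24 h and 85 at 0 h, and its strongest 24 h loop ran to IZUMO1 and FUT1 with 123 counts against 69. A member of count 45 joined GSK3A, a glycogen synthase kinase, to the far end of CIC, a transcriptional repressor. The GSK3A anchor kept a loop 9.75 kb away (68 counts at 24 h, 102 at 0 h), and its strongest loop, to the CIC start, had 398 counts against 283.

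The other leading members had no 24 h counterpart within 10 kb. On chromosome 8 a loop of count 68 joined VCPIP1, a deubiquitinase gene, to SGK3, a kinase gene, and appeared in no other list of the series. The VCPIP1 anchor's strongest 24 h loop went the other way, to MYBL1, with 74 counts against 53 at 0 h. On chromosome 16 a loop of count 64 joined TRAF7, a ubiquitin ligase gene, to MLST8, a subunit of the mTOR complexes, and had 33 wild-type ZNF143 counts and none in the CTCF or RAD21 lists. At 24 h the strongest TRAF7 contact was TSC2, an inhibitor of mTORC1, with 72 counts against 50.

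The CALCOCO1 anchor on chromosome 12 lost a loop of count 61 to an anchor 25.7 kb away at which no gene was placed, a loop with 49 wild-type ZNF143 counts and none for CTCF or RAD21. Its strongest 24 h loop, 226 kb long, reached MAP3K12 and TARBP2 and had 63 counts against 21 at 0 h. A chromosome 7 loop of the same count, 61, ended at IFRD1 and had 53 wild-type ZNF143 counts, the highest of any member. The check there asked only whether the anchor falls inside the gene, so start and body are not told apart. The IFRD1 anchor's strongest 24 h loop ran to ZNF277 and DOCK4 with 67 counts against 40. In each of these 2 cases the remaining contact was longer than the missing one.

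FBXL19, an F-box protein gene on chromosome 16, lost a loop of count 57 to the body of BCL7C, a BAF complex subunit gene. That loop had 11 ZNF143, 9 CTCF and 13 RAD21 counts in wild-type cells. The FBXL19 anchor's loop to CTF1 had 276 counts at 24 h and 145 at 0 h.

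CAPG, an actin-capping protein gene on chromosome 2, lost a loop of count 53 to the body of GGCX, the vitamin K-dependent carboxylase gene. This was the leading member best represented outside the ZNF143 lists, with 34 CTCF and 63 RAD21 counts in wild-type cells and 9 CTCF and 18 RAD21 counts in ZNF143KO cells. Its strongest 24 h loop, to ELMOD3 and RETSAT, had 32 counts against 27. The GPR137 anchor on chromosome 11 lost 4 members, of counts 50, 49, 19 and 10. The first 2 ran to neighbouring anchors at CATSPERZ and at ESRRA, the gene of an orphan nuclear receptor. Both of these match the same wild-type ZNF143 loop of count 24 after extension. GPR137 still contacted PPP1R14B, with 71 counts against 52.

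**Figure D2:**
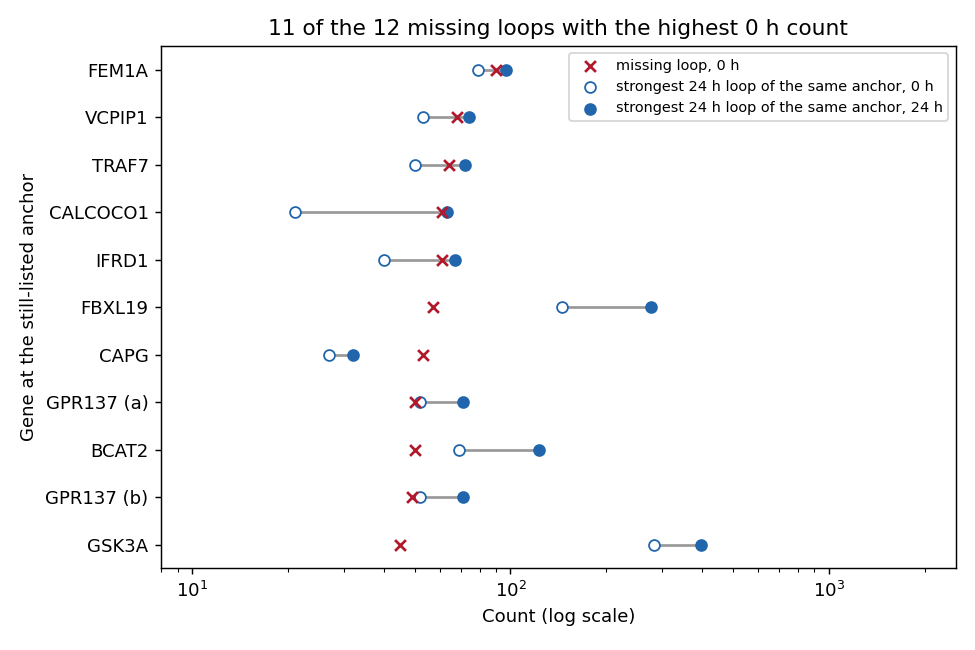
Counts (log axis) for 11 of the 12 members with the highest 0 h count, labelled by the gene at the still-listed anchor; crosses mark the missing loop at 0 h, and circles the strongest 24 h loop of the same anchor at 0 h (open) and 24 h (filled). The filled circle lies to the right of the open one in each row, for instance 276 against 145 at FBXL19; these loops were picked by their 24 h count.

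Across the 455 members with 1 listed end, most of the 24 h count of that end came from loops it already had at 0 h. It had a median of 20 loops at 24 h against 26 at 0 h, with median summed counts of 143 and 167, and the missing loop had made up a median of 10.6% of the 0 h sum. Loops already present at 0 h supplied a median of 81.5% of the 24 h sum. By number rather than count, a median of 40.7% of the 24 h loops of the 303 distinct anchors were not listed at 0 h, and 10 anchors, that of BCL6 among them, had no 24 h loop that was listed at 0 h. The strongest 24 h loop was also listed at 0 h in 416 of 455 (91.4%). It lay on the side of the missing anchor in 48.4% and was longer than the missing loop in 54.5%, and both 95% intervals include 50%. A 24 h partner lay within 10 kb of the unlisted anchor in 16.0% of members, within 20 kb in 33.0% and within 50 kb in 60.2%.

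A second description left all 504 members out of the 0 h loops. For each of the 455 members above, it took the remaining loop of the still-listed anchor with the highest 0 h count. Members that share an anchor enter the same loop more than once, also for the strongest 24 h loop above. The intervals are too narrow on that account too. The loop taken was listed at 24 h in 390 of 455 cases (85.7%), a share that leaving out the members raises. Among those 390 its median count was 26 at 0 h and 27 at 24 h, the median ratio was 1.23, and 64.6% were higher (59.7 to 69.2%). Taking only loops listed at 24 h raises this ratio and this share. Over all 455, with unlisted loops counted as not higher, 55.4% were higher (50.8 to 59.9%), a share that leaving out the members also raises. Kept strong loops, also listed at 24 h by definition, had a median ratio of 1.11, with 54.6% higher (52.0 to 57.2%). The kept loops and the loops taken here overlap and were chosen differently, so their ratios and shares are not comparable. All of them come from the counts that set membership, and a rise of the remaining contact was not tested. When the strongest loop was instead chosen by its 24 h count, the median ratio was 1.66, a value that the choice itself raises.

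The summed count of a still-listed anchor was lower at 24 h in 195 of 303 (64.4%), with a median ratio of 0.845. Leaving out the missing members, the median ratio was 1.1, and at other anchors of kept loops it was 0.977. The ratio of the list totals was 0.719. Members have no 24 h count by construction, so counting them lowers the first ratio and leaving them out raises the second, and both groups of anchors were chosen for having a 24 h loop. These ratios are therefore not comparable with each other or with that of the list totals.

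**Figure D3:**
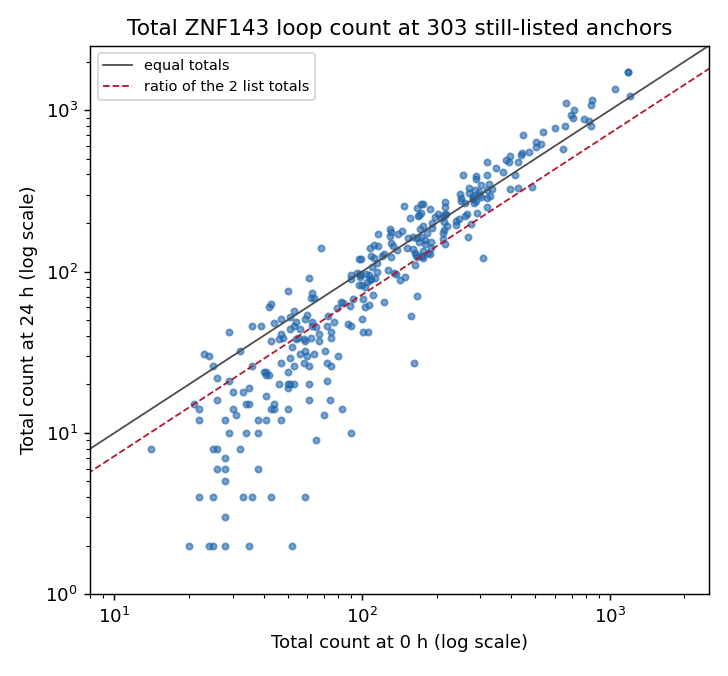
Summed ZNF143 loop count at 0 h (x) and 24 h (y) for the 303 still-listed anchors, both log axes; the solid line marks equal sums and the dashed line the 0.719 ratio of the 2 list totals. Points fall on both sides of the solid line at high and low sums; the 24 h sum was the lower one at 79 of 163 anchors with a 0 h sum of 100 or more and at 116 of 140 with a smaller one.

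Some anchors served several members; these were singled out after their values were seen. The unlisted anchor at SIX5 and DMPK on chromosome 19 (chr19:46270516-46274344, hg19) ended 8 members. SIX5 encodes a homeodomain transcription factor and DMPK a kinase. It had 26 loops and a summed count of 191 at 0 h, and its partners included FBXO46, DMWD, SYMPK, IRF2BP1, PPP1R13L and VASP. In wild-type cells it anchored 7 ZNF143 loops (summed count 41), 6 CTCF loops (25) and 2 RAD21 loops (6). Conversely the still-listed anchor of AP2S1, a clathrin adaptor subunit gene, had 9 members, and its summed count was 842 at 0 h and 795 at 24 h. The anchor of UNK had 6 members and went from 505 to 588, with its WBP2 loop at 111 and 150. Of the 6 still-listed anchors with 5 or more members, 4 had a lower sum at 24 h, with ratios from 0.425 to 1.16. One on chromosome 10 (chr10:104261758-104265183, hg19) went from 211 to 159.

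Members with both ends still listed included UCKL1 to PRPF6 and SAMD10 on chromosome 20 (count 34), PPP1R13L to the body of ERCC1 (32) and PAF1 and MED29 to PLEKHG2 (30). ERCC1 acts in nucleotide excision repair and PAF1 in transcription elongation. The UCKL1 end had a summed count of 320 at 0 h and 284 at 24 h, and the PRPF6 end 123 and 49. The PPP1R13L end had 709 and 890, and the ERCC1 end 276 and 199. The PAF1 end had 96 and 108, and the PLEKHG2 end 103 and 25. A 126 kb loop on chromosome 19 (chr19:6736516-6739203 and chr19:6862221-6864984, hg19) had 32 counts at 0 h and 32 in the wild-type ZNF143 list, and its ends summed to 318 and 41 at 0 h and to 252 and 4 at 24 h. Of these 8 ends, 6 had a lower sum at 24 h. In these loops the ends remained ZNF143 anchors and the contact between them was not listed.

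The wild-type ZNF143 list, from cells without the degron tag, held members less often than kept loops. It listed 343 of 504 members (68.1%, 63.9 to 72.0%) and 88.9% of kept loops (87.1 to 90.4%). The difference was -20.8 percentage points (Newcombe 95% interval -25.3 to -16.5), and 19.4% of all 0 h loops were found there. Among listed loops the median count was 7 for members and 8 for kept loops. Of 836 strong wild-type ZNF143 loops, 7.18% were missing at 0 h and 27.2% at 24 h. Of members, 24.8% were in none of the 5 lists from other cells, and of kept loops 8.68%.

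The wild-type CTCF list held 116 members (23.0%) and 18.7% of kept loops, 4.3 points more (0.235 to 8.63), against 12% of all 0 h loops. The wild-type RAD21 list held 99 members (19.6%) and 16.8% of the kept ones, or 2.85 points more (-0.98 to 6.98), against 10.2% of all 0 h loops. Where listed, median counts were 4 for CTCF and 5 for RAD21 in members, and 5 and 5 in kept loops. With no extension the differences were larger, 7.63 points for CTCF (4.26 to 11.2) and 5.79 for RAD21 (2.67 to 9.16). The CTCF interval included 0 at counts of 20 or more, with a 10 kb extension or without chromosome 19, and the RAD21 difference was -0.115 at counts of 20 or more. In ZNF143KO cells 20.8% of members and 17.4% of kept loops were in the CTCF list (3.47 points, -0.444 to 7.68), and 19% and 14.1% in the RAD21 list (4.96 points, 1.23 to 9.0). Those RAD21 intervals include 0 at counts of 20 or more and with a 10 kb extension. With no extension these differences were 7.67 points for CTCF (4.39 to 11.2) and 6.71 for RAD21 (3.65 to 10.0). All 0 h loops were in these lists at 9.74% and 7.76%.

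**Figure D4:**
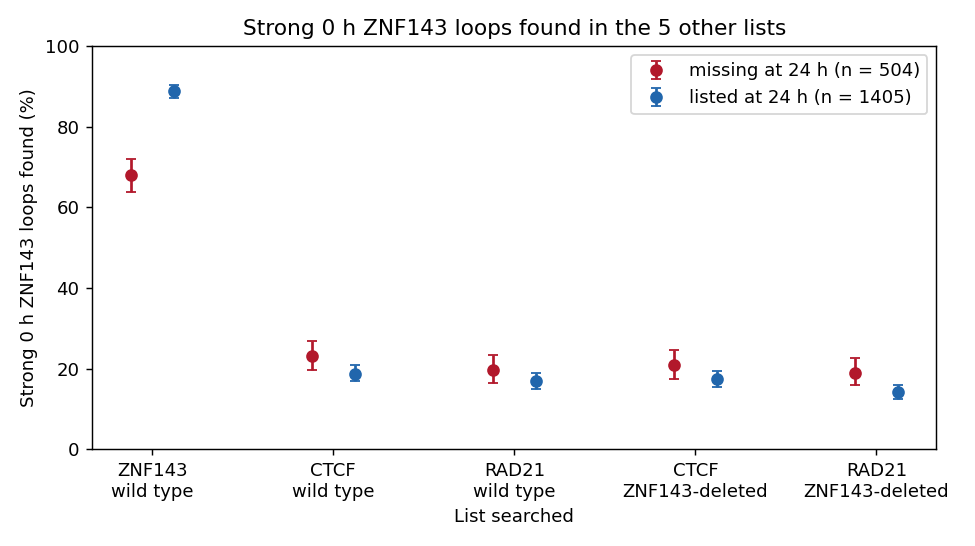
Percent of the 504 missing and 1405 kept strong 0 h ZNF143 loops with a matching loop in each of 5 other lists; bars are 95% Wilson intervals. The 2 groups stand apart in the wild-type ZNF143 list (68.1% and 88.9%) and lie close together in the CTCF and RAD21 lists.

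The members with the highest CTCF or RAD21 counts included the loop of CAPG and GGCX, which also had one of the highest ZNF143 counts (53 at 0 h), and others with 10 to 16 ZNF143 counts at 0 h. The highest, at DZIP1L on chromosome 3, had 10 ZNF143 counts at 0 h and 8 in wild-type cells, with 149 for CTCF and 182 for RAD21, and 43 for each in ZNF143KO cells. A loop from NR4A1, an orphan nuclear receptor gene, had 13 at 0 h, 60 for CTCF and 67 for RAD21, then 24 and 19 in ZNF143KO cells. A 1215 kb loop from BCL6, a transcriptional repressor gene, had 16 at 0 h, 54 for CTCF and 53 for RAD21. A loop from PADI2 to PADI1, which encode peptidylarginine deiminases, had 10 at 0 h, 31 for CTCF and 66 for RAD21. Counts in ZNF143KO cells were lower for each of these 4, which their choice by a high wild-type count favours. Summed counts in ZNF143KO and wild-type cells were 46220 and 80726 for CTCF and 33460 and 74410 for RAD21.

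Among the 12 members with neither end listed, 7 were in the wild-type CTCF list and 7 in the RAD21 list, against 99 and 83 of the 455 with 1 listed end. One at GPC1, a glypican gene, had 13 ZNF143 counts at 0 h, 58 for CTCF and 46 for RAD21. Another spanned 382 kb at TIAM1, a Rac exchange factor gene, with 12 at 0 h, 19 for CTCF and 22 for RAD21. The other 2 described here, with 0 h counts of 14 and 12, both lie on chromosome 20 and were in no CTCF or RAD21 list. Ties at 12 went to the shorter span. A longer loop tied at 12, on chromosome 9, had 7 CTCF and 4 RAD21 counts in wild-type cells. Another tied loop, on chromosome 3, was in neither list. With 12 loops, these shares have wide intervals (58.3%, 32.0 to 80.7%).

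The unlisted and still-listed ends differed in their overlap with wild-type CTCF and RAD21 loop anchors, a comparison chosen after the data had been explored. A CTCF loop anchor overlapped, by 1 bp or more, 239 of 399 unlisted anchors (59.9%) and 120 of 303 still-listed anchors (39.6%), a difference of 20.3 points (12.9 to 27.4). For RAD21 the shares were 56.6% and 35.6% (21.0 points, 13.6 to 28.0). For wild-type ZNF143 anchors the order was the other way, 70.4% and 96.4% (-25.9 points). Unlisted and still-listed ends were not matched for width or loop number. A wider anchor overlaps more readily, and still-listed ends carried more ZNF143 loops at 0 h. With anchors extended by 5 kb the differences were 15.9 points for CTCF, 16.5 for RAD21 and -21.5 for ZNF143.

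Other anchors give the background to these shares. Anchors of kept loops overlapped CTCF anchors in 43.1% and RAD21 anchors in 40.0%. Among all 21128 anchors of the 0 h list, unlisted ones overlapped CTCF anchors in 42.4% and still-listed ones in 37.3%, and RAD21 anchors in 39.8% and 34.7%. On chromosome 19 the CTCF shares for members' unlisted and still-listed ends were 47.6% and 36.4%, with overlapping intervals, and on the other chromosomes 63.2% and 40.5%. Of the 455 members, 156 had a CTCF anchor at the unlisted end only, 58 at the still-listed end only, 119 at both and 122 at neither. In ZNF143KO cells the unlisted ends also overlapped CTCF anchors more often, 55.4% against 38.9% (16.4 points, 9.0 to 23.6).

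**Figure D5:**
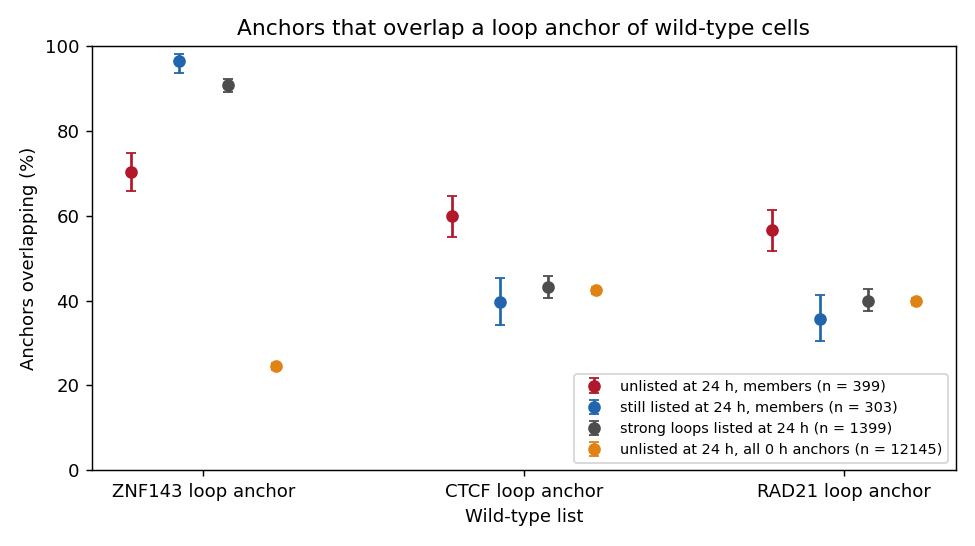
Percent of anchors that overlap a loop anchor of each wild-type list, for the unlisted (399) and still-listed (303) ends of members, anchors of kept loops (1399) and all unlisted 0 h anchors (12145); bars are 95% Wilson intervals. Unlisted ends of members are highest for CTCF (59.9%) and RAD21 (56.6%), and still-listed ends are highest for ZNF143 (96.4%).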

How the data were processed

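HiChIP loop lists of 7 libraries were used as deposited, with hg19 anchor pairs and whole-number counts made by the authors. Per the submitters' processing notes the reads went through HiC-Pro on hg19; the loop caller, its filters and any pooling are not given in the sources used here. The lists come in 2 column layouts. Loops were matched with both anchors within 5 kb, and the count in another list is the highest among matching loops. Shares carry 95% Wilson intervals and differences Newcombe intervals (Python 3.11.15, numpy 2.4.6, pandas 2.3.3, statsmodels 0.14.6); the matching was tested on simulated loops. With 1 library per group no test was made. Named loops are the 12 members with the highest 0 h count (ties to the shorter span), the 4 highest in each class of 2, 1 or 0 listed anchors, and the 4 highest by wild-type CTCF and by RAD21 count; 1 of the 12 is not reported here, and anchors shared by several members were added after their values were seen. Members and lists were chosen with earlier results of these data known. Gene and motif shares over all anchors, and gene lists by name (protocadherin, ZNF, ribosomal protein, histone, HOX, RNU, cohesin), needed an hg19 genome and annotation and were not run. Alternatives were a count of 20 or more, counts of 10 to 19 only, no extension and 10 kb; leaving out chromosome 19 and extending anchors by 5 kb were added after seeing the data.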

Additional observations from a re-analysis of the deposited data

How the results depend on the processing

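Results were recomputed 54 times under the alternatives; 48 stayed within the counting interval of the reported value, 6 moved beyond it and 0 of the differences whose interval excluded 0 changed sign. The share of strong 0 h loops missing was 26.4% as reported, 16.9% at counts of 20 or more, 32.3% with no extension, 22.2% with a 10 kb extension and 31.3% without chromosome 19. At counts of 20 or more, 94.7% of members had 1 listed anchor, and the CTCF anchor difference between unlisted and still-listed ends was 29.2 points. Members numbered 94 at counts of 20 or more, 617 with no extension and 424 with 10 kb. The anchor comparison, the run without chromosome 19 and the 5 kb extension of anchors were chosen after seeing the data. The planned gene and motif results and their alternatives were not run, for want of an hg19 genome. No paired analysis was possible because each group has 1 library. A weakened, a filtered and an absent loop cannot be told apart, and the 24 h list has the smaller summed count.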
